A study of Homo sapiens with 48 samples.

Results

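The cytosolic ribosomal protein genes are described here in human skin fibroblasts in which GLIS3 was knocked out or activated. Members were chosen by symbol: RPL or RPS followed by a number, with an optional letter A, X, Y or L and a further number, plus RPSA, RPLP0, RPLP1 and RPLP2, with a mean CPM (counts scaled to library totals) of at least 10 over all 48 libraries. Pseudogene symbols ending in P and a number, and RPS4Y symbols, were left out. The rule gave 82 of the 29744 genes in the table, out of 84 candidates by symbol. RPL10L at 0.0359 CPM and RPL3L at 0 fell short, and RPL39L at 17.2, RPL22L1 at 21.7, RPL26L1 at 23.1 and RPS27L at 57.2 CPM were the lowest members. By name, 31 belonged to the small subunit, 43 to the large subunit and 3 to the acidic stalk, and 5 were paralogs with a symbol ending in L or L1. RPL36AL and FAU, which also encode ribosomal proteins, fell outside the rule.

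All libraries came from CRL-4001, an immortalized human skin fibroblast line carrying a fluorescent IL11mNG reporter of IL11 expression. The CRISPRko libraries were made from Cas9 cells given a non-targeting guide (CtrlKO) or a GLIS3 guide (GLIS3KO), and the CRISPRa libraries from dCas9–VP64 cells given a non-targeting or a GLIS3 guide (VP64_Ctrl and VP64_A, by their descriptions). Guides were delivered by lentivirus into lines derived from clones, and drug-selected populations were used. The cells were untreated (0 h) or had TGFβ and IL-1β at 10 ng/ml each for 6, 12 or 24 h, all harvested together, with 3 libraries in each of 16 conditions. The study describes its cell culture experiments in general as made with independent biological replicates. The labels do not say how the 3 libraries of a condition were made, and p-values measure the spread between them.

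The labels of the CRISPRa libraries contradict each other. The descriptions, which are also the column names of the tables, put 12 libraries in VP64_A and 12 in VP64_Ctrl, while the titles, genotypes and conditions name the VP64_A libraries as the control and the VP64_Ctrl libraries as activated. The groups used here follow the descriptions, and under the other labels every direction given for VP64_A over VP64_Ctrl would turn. GLIS3 itself ran from 16.6 to 36.7 TMM-normalised CPM in VP64_A and from 1.91 to 6.31 in VP64_Ctrl, with no overlap. In the CRISPRko cells GLIS3 ran from 1.45 to 6.47 in CtrlKO and from 0.14 to 1.63 in GLIS3KO, and the fit gave a log2 fold change of -1.68 ± 0.25 (SE, adjusted p = 5.71e-05, edgeR).

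Each ribosome carries a set of ribosomal proteins in fixed numbers around its RNA, and a growing cell spends much of its transcription on making them. Their mRNAs belong to a class that starts with a C followed by an unbroken run of pyrimidines, the terminal oligopyrimidine (TOP) tract. Through this tract LARP1 and mTOR signalling control their translation and stability. The stalk proteins recruit elongation factors, and several paralogs (RPL22L1, RPS27L, RPL39L, RPL26L1, RPL7L1) can take the place of, or act beside, the canonical protein.

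Transcript starts are shown for the members on which the comparisons turn: RPS10, RPS18 and RPS24 with the lowest adjusted p in the averaged CRISPRa comparison, RPS7 called at 0 h, RPS27 nearest to no change, RPL28 whose share did not overlap between the Cas9 and dCas9–VP64 libraries, and RPL22 beside the paralogs. Each window runs 5′ to 3′ from 10 bases before to 20 bases from the RefSeq transcript start (GRCh38.p14), and capitals mark a C at the first transcript base with the pyrimidines that follow it without a break.
RPS10: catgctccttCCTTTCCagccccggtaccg
RPS18: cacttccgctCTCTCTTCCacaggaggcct
RPS24: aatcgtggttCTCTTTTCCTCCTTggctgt
RPS7: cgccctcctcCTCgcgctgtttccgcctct
RPS27: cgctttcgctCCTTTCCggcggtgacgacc
RPL28: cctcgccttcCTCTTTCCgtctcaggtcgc
RPL22: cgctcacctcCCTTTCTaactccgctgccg
RPL22L1: ccgtagcttcCTCTCTgctctcgcggccga
RPS27L: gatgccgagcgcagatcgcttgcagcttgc
RPL7L1: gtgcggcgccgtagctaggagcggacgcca

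RPS10 is at chr6:34426050-34426079 on the minus strand, RPS18 at chr6:33272065-33272094 (plus), RPS24 at chr10:78033853-78033882 (plus), RPS7 at chr2:3575250-3575279 (plus) and RPS27 at chr1:153990752-153990781 (plus). RPL28 is at chr19:55385922-55385951 (plus), RPL22 at chr1:6199576-6199605 (minus), RPL22L1 at chr3:170870176-170870205 (minus), RPS27L at chr15:63157458-63157487 (minus) and RPL7L1 at chr6:42879606-42879635 (plus). RPS24 had the longest tract shown, 14 bases, and RPS27L and RPL7L1 began with no C at all.

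RefSeq start windows were found for 66 of the 82 members. A first-base C followed by at least 4 more pyrimidines stood at a listed start of 47 of these (71.2%), against 1404 of all 27305 genes with windows (5.14%). The string CTTTC on the sense strand, or instead the string CTTCC, the string CTCTT or the string CCTTT, lay within the first 15 transcript bases of 45 members (68.2%) and of 10.2% of all genes, and a window can hold several of them. On both strands of the 300 bases around the start, CCGGAA, the core of ETS-family sites, occurred in 57.6% of members and 20.1% of all genes. GGGCGG, the SP1 core, occurred in 57.6% and 48.3%, ATGGCGGC, a YY1 core, in 7.58% and 3.67%, and TATAAA in 9.09% and 14%. These are matches of letters, and genes with several listed starts were counted when any start held the match.

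The ribosomal protein genes took between 4.45% and 9.59% of the counts of a library, with a median of 6.10%. In VP64_A the share was 8.78% ± 0.88 (SD, n = 3) at 0 h, 7.57% ± 0.47 at 6 h, 6.84% ± 0.59 at 12 h and 5.63% ± 0.23 at 24 h. In VP64_Ctrl it was 7.61% ± 1.35, 6.41% ± 0.35, 5.88% ± 0.28 and 4.92% ± 0.20 at the same times. Both CRISPRa populations were lowest at 24 h, where no library reached any of its own 0 h libraries.

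The CRISPRko cells moved over a smaller range. CtrlKO libraries held 6.91% ± 0.47 at 0 h, 6.07% ± 0.80 at 6 h, 5.42% ± 0.03 at 12 h and 5.77% ± 0.60 at 24 h. GLIS3KO libraries held 7.34% ± 0.70, 5.62% ± 0.16, 5.93% ± 0.61 and 5.41% ± 0.99. The share at 24 h was 0.835 of that at 0 h in CtrlKO, 0.737 in GLIS3KO, 0.642 in VP64_A and 0.646 in VP64_Ctrl. Averaged over the 4 times, the ratio of shares was 1.16 for VP64_A to VP64_Ctrl and 1.00 for GLIS3KO to CtrlKO. On the length-corrected TPM scale the members held 13.5% to 23.9% of a library.

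**Figure D1:**
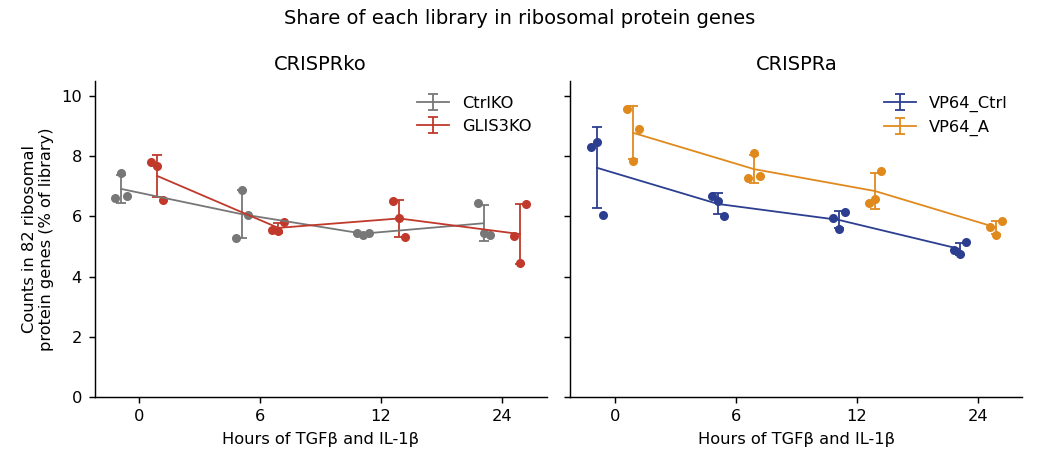
Percent of each library's counts in the 82 ribosomal protein genes (y axis) against hours of cytokines (x axis, equally spaced), with 1 point a library and lines and bars for mean and SD of 3 libraries. VP64_A falls from 8.78% to 5.63% and VP64_Ctrl from 7.61% to 4.92%, and the 2 CRISPRko populations overlap at each time.

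These shares are relative within a library. In bulk cells, fewer cells that make a transcript and less of it per cell cannot be told apart. FN1, the fibronectin gene, took 1.2% to 6.43% of counts in single libraries. Its mean share rose between 0 h and 24 h from 1.55% to 3.76% in VP64_A, from 1.38% to 3.78% in VP64_Ctrl, from 3.34% to 6.19% in CtrlKO and from 2.44% to 4.69% in GLIS3KO. The FN1 share and the share of the members had a Pearson correlation of -0.65 over all 48 libraries. It was -0.45 in the CRISPRko and -0.82 in the CRISPRa libraries. The part of FN1 in the lower ribosomal share was not tested.

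Library totals ran from 2321990 to 10661004 counts. The share of the members and the library total had a Pearson correlation of 0.57 over all 48 libraries. It was 0.52 in the CRISPRko and 0.56 in the CRISPRa libraries, and the part of depth in the shares was not tested. The 50 most abundant genes took 23.1% to 46.4% of a library, and 4 libraries lay more than 6 points below the median of their condition in this share: CtrlKO 6 h replicate 1, GLIS3KO 0 h replicate 3, GLIS3KO 24 h replicate 3 and VP64_Ctrl 0 h replicate 3. VP64_Ctrl 0 h replicate 3 had the lowest, at 23.1%, and the highest share of mitochondrial ribosomal protein genes, at 0.497% against a median of 0.245%. All 10 fibroblast markers were detected in each library. Of 4 epithelial markers EPCAM was at 0 in all 48 libraries, KRT5 in 47 and CDH1 in 36, and the sum of the 4 was 14.1 to 78.9 TPM in VP64_A, 2.17 to 12.8 in VP64_Ctrl and at most 1.66 in the CRISPRko cells, nearly all of it KRT14. Of 3 immune markers CD3E was at 0 in all and PTPRC in 37, while CD68 had 13.6 to 69.6 TPM. The endothelial and melanocyte sums stayed under 1 TPM. Counts of called members are given with and without the 4 libraries that stood apart in the share of the 50 most abundant genes, where the counts moved. Most values of single genes are given only with these libraries. The same holds for the other TOP mRNAs, regulators, host genes and mitochondrial ribosomal genes described below.

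Levels were compared between members only per length, in TPM, which divides the counts by transcript length and scales them to a fixed total. RPL41, which encodes a very short large-subunit peptide, was highest with a mean of 9638 TPM (range 6701 to 14038 over 48 libraries). RPLP1, a stalk protein, followed at 6518 TPM, then RPL19 at 4817, RPS18 at 4709 and RPL37A at 4666. RPL19, RPS18 and RPL37A overlapped over their ranges.

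Next in the order, RPSA, the small-subunit protein also known as the laminin receptor, had a mean of 4321 TPM. RPL3 had 3756, RPS6, the substrate of S6 kinase, 3600 and RPLP0 3458. RPL11 had 3013 and RPL5 2468. These 2 bind MDM2 when ribosome assembly fails. RPS27A, made as a fusion with ubiquitin, had 2119 TPM and RPS19, mutated in Diamond-Blackfan anaemia, 1710 TPM.

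The 5 paralogs and RPL22 made up the lowest 6 places. RPL22 had a mean of 101 TPM and its paralog RPL22L1 95.6 TPM, so the pair overlapped in range (58.0 to 174 and 36.6 to 190 TPM). In the other pairs the canonical gene was far above. RPS27 had 2499 against 95.4 TPM for RPS27L, RPL26 1829 against 69.3 for RPL26L1, RPL39 1509 against 53.2 for RPL39L, and RPL7 2232 against 88.4 for RPL7L1.

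Some levels depend on how reads were assigned. RPL27A had 3.41 CPM per TPM and RPL13 3.12, against a median of 0.329 over the members, so their TPM are low for their counts. In the other direction RPS29 had 0.0933 CPM per TPM. RPL22 had 1.34 and RPL22L1 0.228 CPM per TPM, so the nearness of this pair in TPM also rests on these ratios. The place of RPL22 among the lowest 6 does as well. Ribosomal protein genes also have many near-identical processed pseudogenes, and 33 such rows in the table summed to 5.87% to 7.81% of the members' counts in a library. Reads could have been split between them, so absolute levels are uncertain.

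Knockout of GLIS3 was compared with the non-targeting guide in the CRISPRko cells to ask whether the ribosomal protein genes followed loss of GLIS3. Averaged over 4 times, 0 of 82 members passed in either direction (edgeR, adjusted p under 0.05), where 1.98% of all tested genes were higher and 1.09% lower. Canonical and stalk examples lay near 0: the log2 fold change was 0.02 ± 0.14 (SE) for RPLP0, -0.06 ± 0.13 for RPLP1, -0.04 ± 0.13 for RPSA, 0.05 ± 0.11 for RPS18 and -0.02 ± 0.14 for RPS6. Over the members the median was 0.02, beside -0.01 over all genes, with 47 above and 35 below 0.

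The members with the lowest p in this comparison were paralogs. RPL22L1 in CtrlKO had a lowest, median and highest value of 13.4, 24.9 and 38.1 CPM over 12 libraries, and in GLIS3KO 11.3, 19.5 and 31 CPM. The ranges overlapped, and the log2 fold change of -0.43 ± 0.14 had an adjusted p of 0.085 (edgeR). RPL26L1 had 16.4, 18.8 and 24.4 CPM in CtrlKO and 18.3, 23.1 and 43.6 CPM in GLIS3KO, with a log2 fold change of 0.31 ± 0.10 (adjusted p = 0.0799, edgeR). Of the 82 members 5 had an unadjusted p under 0.05: RPL26L1, RPL22L1, RPL39L, RPS27L and RPL7L1, all 5 being the paralogs. Of all 10962 tested genes 1771 had such a p, a larger share than among the members. DESeq2 and limma on TPM also called 0 members. Without the 4 libraries named above, RPL22L1 was called, with a log2 fold change of -0.51.

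At the single times 0 members passed in the CRISPRko cells (edgeR), while 0.173% of all genes were called higher and 0.128% lower at 0 h, 0.274% and 0.0456% at 6 h, 0.0547% and 0.0274% at 12 h, and 0.137% and 0.073% at 24 h. An unadjusted p fell under 0.05 for 1, 4, 8 and 10 members at 0, 6, 12 and 24 h. It did so for 1253, 1228, 842 and 1096 of all 10962 tested genes. DESeq2 and limma on TPM called 0 members at each time. The median of the members was 0.08, 0.12, 0.27 and -0.38 on the log2 scale at these times, beside medians of all genes from -0.03 to 0.02. Leaving out 1 library moved it from -0.06 to 0.28 at 0 h, the latter without GLIS3KO 0 h replicate 3, and from -0.12 to 0.33 at 6 h, the former without CtrlKO 6 h replicate 1. At 12 h it ran from 0.12 to 0.39 and at 24 h from -0.55 to -0.23. Members higher in all 3 GLIS3KO than in all 3 CtrlKO libraries numbered 0, 2, 22 and 0 at 0, 6, 12 and 24 h, where 8.97%, 7.31%, 7.69% and 7.02% of all genes were. Those lower in all 3 numbered 1, 2, 1 and 18, where 8.85%, 7.64%, 7.49% and 6.47% of all genes were. Members of 1 library rise and fall together, so these counts are not independent.

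VP64_A was compared with VP64_Ctrl in the CRISPRa cells to ask whether the ribosomal protein genes followed activation of GLIS3. Averaged over 4 times, 38 of 82 members were higher in VP64_A and 0 lower (edgeR, adjusted p under 0.05), where 9.15% of all 10980 tested genes were higher and 9.23% lower. By role, 16 of 31 small-subunit genes, 21 of 43 large-subunit genes, 1 of 3 stalk genes (RPLP2) and 0 of 5 paralogs passed. The called members lay between 0.31 and 0.54 on the log2 scale. The median over all 82 was 0.32, beside 0.00 over all genes, and 78 lay above 0. KRT14 moved with this contrast without overlap, as given above, and its part in the result was not tested.

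RPS10, a small-subunit protein ubiquitinated when ribosomes stall, had a lowest, median and highest value of 284, 470 and 525 CPM over the 12 VP64_Ctrl libraries and of 449, 633 and 801 CPM over the 12 VP64_A libraries. Its log2 fold change was 0.54 ± 0.10 (SE, adjusted p = 0.000257, edgeR), the lowest p among the members. The ranges overlapped between 449 and 525 CPM when the times were pooled, and at 24 h they did not: 327, 312 and 347 CPM in VP64_Ctrl against 474, 449 and 495 CPM in VP64_A.

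RPS18, a small-subunit protein, had 579, 803 and 1098 CPM in VP64_Ctrl and 808, 1079 and 1442 CPM in VP64_A. Its log2 fold change was 0.46 ± 0.11 (adjusted p = 0.00222, edgeR). RPS24, another small-subunit protein, had 242, 468 and 577 CPM against 445, 586 and 827 CPM (0.53 ± 0.12, adjusted p = 0.00229, edgeR). At 24 h the VP64_Ctrl libraries of RPS24 were 337, 254 and 294 CPM and those of VP64_A 558, 445 and 566 CPM, again without overlap.

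RPS6 (0.38 ± 0.13, adjusted p = 0.0394), RPL5 (0.36 ± 0.12, 0.0266), RPL11 (0.40 ± 0.12, 0.0195), RPS19 (0.39 ± 0.12, 0.0213) and RPS27A (0.36 ± 0.13, 0.0388) passed as well (edgeR). Of the stalk, RPLP2 passed at 0.33 ± 0.11 (adjusted p = 0.0413, edgeR). RPLP0 gave 0.34 ± 0.13 (adjusted p = 0.0716), RPLP1 0.19 ± 0.12 (0.303) and RPSA 0.36 ± 0.14 (0.0672), which did not pass.

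Members with the smallest differences were mostly the paralogs. RPS27L gave -0.20 ± 0.09 (adjusted p = 0.13, edgeR), with 31.2, 42 and 63.8 CPM in VP64_Ctrl and 25, 37.7 and 52.3 CPM in VP64_A. RPL22L1 gave -0.17 ± 0.14, RPL39L -0.14 ± 0.10, RPL26L1 -0.13 ± 0.12 and RPL7L1 0.09 ± 0.08. Among the canonical genes RPS27, a zinc-binding small-subunit protein, gave 0.01 ± 0.12 with 151, 255 and 338 CPM against 135, 237 and 353 CPM, and RPS26 0.08 ± 0.12. These values were not tested against those of the other members.

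**Figure D2:**
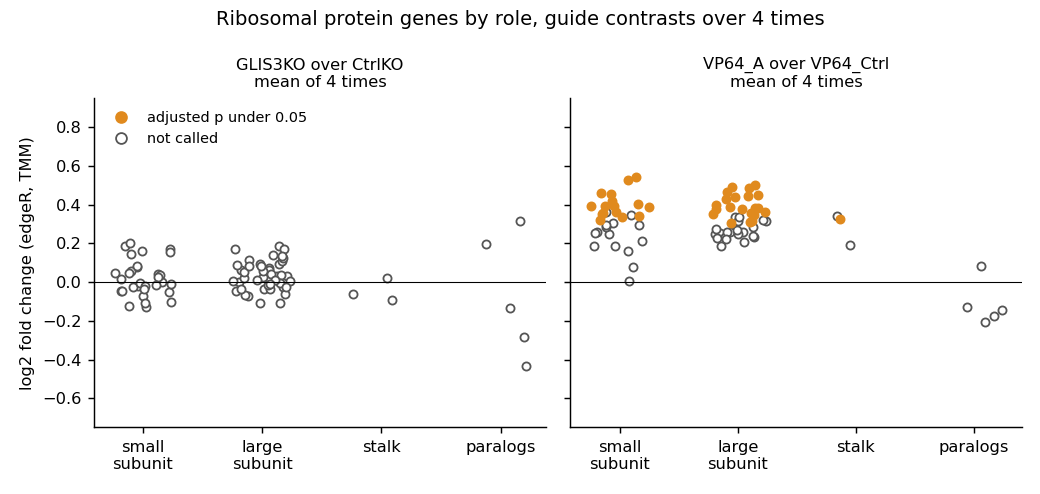
Log2 fold change (y axis, edgeR with TMM scaling) of each of the 82 ribosomal protein genes by role (x axis), for GLIS3KO over CtrlKO (left) and VP64_A over VP64_Ctrl (right), both averaged over 4 times. Filled points pass an adjusted p of 0.05: none on the left and 38 on the right, between 0.31 and 0.54, and 4 of the 5 paralogs on the right lie below 0.

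Start sequences were set beside these values without a test. Of the 66 members with a RefSeq window, the 47 with a first-base C and at least 4 more pyrimidines had a median log2 fold change of 0.32 and the 19 without it 0.32. This split rests on the listed first base. The 19 include members such as RPL4, RPL9 and RPL10A, with a short pyrimidine string within the first 15 bases. They also include the paralogs RPS27L, RPL7L1 and RPL26L1. The medians therefore do not compare genes with and without a TOP tract. RPS27 and RPS10 both begin with the letters CCTTTCC, and their log2 fold changes were 0.01 and 0.54. RPS7, whose window has a tract of 3 bases, gave 0.39 ± 0.11 (adjusted p = 0.00714, edgeR).

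The count of higher members was 36 with library totals only, 31 with DESeq2 size factors, 29 with offsets that depend on abundance, 47 with DESeq2, 48 with limma on log2(TPM + 1) and 26 without the 4 libraries named above. The counts under these alternatives were not set beside shares of all genes. With library totals the median of all genes moved to -0.14 and that of the members to 0.20. With offsets that depend on abundance the median of the members was 0.16 in place of 0.32, beside 0.00 over all genes, so the size of the difference depended on the scaling. Without VP64_Ctrl 0 h replicate 3 it was 0.25. Leaving out 1 library gave 21 to 48, and 5 libraries each took the count to 24 or fewer: VP64_A 6 h replicate 2 (22), VP64_A 12 h replicate 3 (22), VP64_Ctrl 6 h replicate 1 (23), VP64_Ctrl 12 h replicate 2 (21) and VP64_Ctrl 24 h replicate 2 (24).

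**Figure D3:**
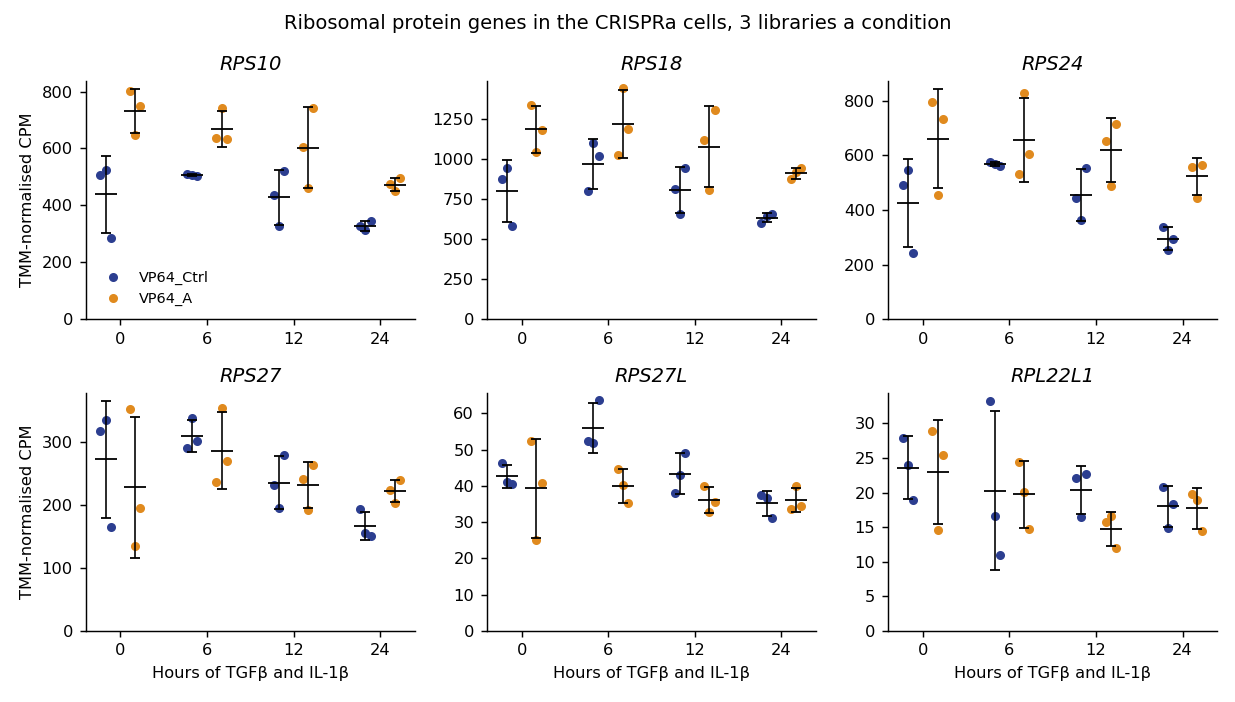
TMM-normalised CPM (y axis) of 6 ribosomal protein genes in each CRISPRa library against hours of cytokines (x axis, equally spaced), with mean and SD of 3 libraries in black. RPS10, RPS18 and RPS24 are higher in VP64_A at 24 h without overlap, while RPS27L and RPL22L1 overlap between the guides at 24 h.

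At 0 h 4 members were higher in VP64_A and 0 lower (edgeR), where 4.29% of all genes were higher and 5.12% lower. RPS7 was 397, 401 and 212 CPM in the VP64_Ctrl libraries and 604, 447 and 674 CPM in VP64_A (log2 fold change 0.77 ± 0.21, adjusted p = 0.016, edgeR). RPS10 gave 0.74 ± 0.21 (0.0209) and RPL32 0.79 ± 0.25 (0.0384). In RPS7, RPS10 and RPL32 VP64_Ctrl replicate 3, a library that stood apart, was lowest by far. RPL32 overlapped, with 405 CPM in VP64_A replicate 2 against 443 and 447 CPM in VP64_Ctrl. Without VP64_Ctrl 0 h replicate 3, 0 members were called. The count was also 0 without VP64_A 0 h replicate 1 or replicate 3, 11 without VP64_A 0 h replicate 2 and 17 without VP64_Ctrl 0 h replicate 2.

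At 6, 12 and 24 h 0 members passed (edgeR), where 1.86% of all genes were higher and 1.90% lower at 6 h, 2.37% and 1.94% at 12 h, and 1.99% and 2.13% at 24 h. Before adjustment, p was under 0.05 for 1, 1 and 27 members at these times. Among all 10980 tested genes it was for 1487, 1619 and 1641. DESeq2 called 0, 0 and 1, and limma on log2(TPM + 1) called 6, 2 and 2 members higher. The medians of the members were 0.49 at 0 h, 0.12 at 6 h, 0.25 at 12 h and 0.43 at 24 h. Without VP64_Ctrl 0 h replicate 3 the 0 h median was 0.24, without VP64_A 6 h replicate 2 that at 6 h was -0.0074 and without VP64_A 12 h replicate 3 that at 12 h was 0.085, while at 24 h it stayed between 0.39 and 0.50 when 1 library was left out. Members higher in all 3 VP64_A than in all 3 VP64_Ctrl libraries numbered 31, 3, 3 and 75 of 82 at 0, 6, 12 and 24 h, where 13.2%, 9.59%, 8.59% and 12.3% of all genes were. Those lower in all 3 numbered 1, 1, 0 and 0, where 13.4%, 8.94%, 8.32% and 11.1% of all genes were.

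The 24 h result depended on which libraries gave the estimate of spread. With the 6 libraries of that time alone, in place of all 24 CRISPRa libraries, 41 members were called higher at 24 h. The share of all genes called in that smaller fit is not given. RPS24 was the nearest to the threshold in the fit over all 24, with a log2 fold change of 0.83 ± 0.25 (adjusted p = 0.0512, edgeR). With library totals the median of the members at 24 h was 0.17 and that of all genes -0.28.

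Whether the guide effect changed with time was tested as an interaction. It was called for 0 of 82 members in either experiment (edgeR), where 0.0365% of all genes were called in the CRISPRko and 0.428% in the CRISPRa cells. Unadjusted p was under 0.05 for 3 members in the CRISPRko and 0 in the CRISPRa cells. Over all genes it was for 899 of 10962 and 978 of 10980. RPL26L1 (adjusted p = 0.592) and RPL22L1 (0.597) had the lowest p in the CRISPRko cells, and RPS7 (0.706) and RPL26L1 (0.72) in the CRISPRa cells. DESeq2 and limma on TPM called 0 members.

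The response to TGFβ and IL-1β was followed in each population against its own 0 h libraries, and all 3 comparisons of a population share those libraries. With TMM scaling few members passed. Shares of all genes in these comparisons are those of the edgeR fit with TMM scaling. Counts of members under the alternatives have no such share beside them and are not read as results about the members. In CtrlKO 0 members passed at 6, 12 or 24 h (edgeR), where 10.3%, 11.3% and 6.53% of all genes were higher and 5.60%, 8.27% and 3.73% lower. An unadjusted p fell under 0.05 for 0, 5 and 0 members, and for 2962, 3466 and 2295 of all 10962 tested genes. DESeq2 called 0 members at each time, and limma on log2(TPM + 1) called 0, 18 and 1 lower. The medians were -0.01, -0.27 and -0.05.

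In GLIS3KO 0 members passed at 6 h (edgeR), where 13.2% of all genes were higher and 10.8% lower. Before adjustment, p was under 0.05 for 1 member and for 3926 of all 10962 tested genes. DESeq2 called 0 members and limma on log2(TPM + 1) called 42 lower. At 12 h 3 fell and 0 rose, where 13% of all genes fell and 14.4% rose, and all 3 were paralogs. RPS27L, a p53 target, went from 117, 110 and 74.1 CPM at 0 h to 73.3, 62.5 and 58.7 CPM at 12 h (-0.63 ± 0.18, adjusted p = 0.0093, edgeR), with no overlap by a narrow margin. RPL26L1 gave -0.61 ± 0.19 (0.0164) and RPL39L -0.67 ± 0.22 (0.0241). Without GLIS3KO 0 h replicate 1 or GLIS3KO 12 h replicate 3, 0 members were called.

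At 24 h in GLIS3KO 10 members fell and 0 rose, where 6.78% of all genes fell and 9.07% rose. RPS27L was 68.9, 50.4 and 57.4 CPM (-0.76 ± 0.18 against 0 h, adjusted p = 0.00283, edgeR). RPL5 went from 1754, 1559 and 967 CPM to 936, 793 and 817 CPM (-0.75 ± 0.24, adjusted p = 0.0254, edgeR). RPL17, at the exit of the peptide tunnel, gave -0.78 ± 0.25 (0.0257), and RPL36A, RPS18, RPL31, RPL30, RPS3, RPSA and RPL12 completed the 10. GLIS3KO 0 h replicate 3 was the lowest 0 h library of RPS27L and RPL5. Without it 45 members fell, and without all 4 libraries that stood apart 49 fell. The count was 27 without GLIS3KO 24 h replicate 1, 4 without replicate 3 and 1 without replicate 2, and it was 1 without GLIS3KO 0 h replicate 1 or replicate 2.

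In VP64_Ctrl 4 members rose at 6 h and 0 fell (edgeR), where 16.2% of all genes rose and 12.6% fell. RPS27A went from 939, 1015 and 425 CPM to 1290.1, 1290.3 and 1265 CPM (0.69 ± 0.25, adjusted p = 0.0365, edgeR), with no overlap. RPS2 gave 0.61 ± 0.22 (0.0388) and RPL36A 0.84 ± 0.32 (0.0435). The direction of the calls turned with the scaling. Library totals gave 0 rising and 30 falling, offsets that depend on abundance 18 falling and limma on log2(TPM + 1) 38 falling. With library totals all genes moved as well, to a median of -0.79, beside -0.30 for the members. Relative to the median of all genes, the members lay at 0.43 (TMM), 0.48 (library totals) and -0.11 (abundance offsets). Without VP64_Ctrl 0 h replicate 3, 0 members rose. The count was 0 too without VP64_Ctrl 6 h replicate 2 or replicate 3, and 15 rose without VP64_Ctrl 0 h replicate 2.

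At 12 h in VP64_Ctrl 0 members passed (edgeR), where 15.3% of all genes rose and 11.5% fell. Unadjusted p was under 0.05 for 2 members and for 4190 of all 10980 tested genes. DESeq2 called 2 members higher and limma on log2(TPM + 1) called 57 lower. The share of all genes called by limma is not given. With library totals the median of all genes was -0.63 here and that of the members -0.49. At 24 h 2 fell and 0 rose, where 5.57% of all genes fell and 10.4% rose. RPS29, a zinc-binding small-subunit protein, went from 161, 175 and 89.1 CPM to 95, 73.6 and 70.1 CPM (-0.83 ± 0.26, adjusted p = 0.0277, edgeR), and RPS15A gave -0.62 ± 0.21 (0.0461). Without VP64_Ctrl 0 h replicate 3, 40 members fell, and without any other of the 6 libraries 0 or 1 did.

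In VP64_A 0 members passed at 6 h (edgeR), where 11.4% of all genes rose and 5.93% fell. An unadjusted p fell under 0.05 for 1 member and for 3309 of all 10980 tested genes. DESeq2 called 0 members and limma on log2(TPM + 1) called 10 lower. Without VP64_A 0 h replicate 1, 3 rose. At 12 h RPL22 alone fell (-0.60 ± 0.20, adjusted p = 0.0331, edgeR), where 7.10% of all genes fell and 12.6% rose. RPL22 was 224, 101 and 209 CPM at 0 h and 133, 117 and 104 CPM at 12 h, so VP64_A 0 h replicate 2 lay below every 12 h library. Without VP64_A 0 h replicate 2, 4 members fell at 12 h, and 0 did without VP64_A 0 h replicate 1 or replicate 3 or without VP64_A 12 h replicate 2 or replicate 3.

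At 24 h in VP64_A 6 members fell and 0 rose, where 4.55% of all genes fell and 9% rose. RPS7 went from 604, 447 and 674 CPM to 332, 285 and 354 CPM (-0.83 ± 0.21, adjusted p = 0.00586, edgeR), without overlap. RPS3A, a small-subunit protein, went from 1814, 1359 and 1819 CPM to 989, 791 and 1026 CPM (-0.83 ± 0.25, adjusted p = 0.0198, edgeR), also without overlap. RPL22 (-0.66 ± 0.20, 0.0245), RPS15A, RPL32 and RPS10 were the others. The count was 11 without VP64_A 0 h replicate 2, 3 without VP64_A 24 h replicate 3 and 1 without any of the other 4 libraries.

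The number of members that fell with time turned on the scaling. With library totals only, 63 members fell in VP64_A and 78 in VP64_Ctrl at 24 h, 29 in GLIS3KO and 1 in CtrlKO. With offsets that depend on abundance the counts were 54, 57, 7 and 0. Library totals moved the median of all genes as well, to -0.32 in VP64_A, -0.44 in VP64_Ctrl, 0.09 in GLIS3KO and -0.21 in CtrlKO. Relative to the median of all genes, the members at 24 h lay at -0.32 (TMM), -0.33 (library totals) and -0.48 (abundance offsets) in VP64_A. In VP64_Ctrl these were -0.37, -0.31 and -0.51, in GLIS3KO -0.53, -0.49 and -0.27, and in CtrlKO -0.06, -0.06 and -0.11. At 6 h in VP64_Ctrl they were 0.43, 0.48 and -0.11, so the sign turned with abundance offsets and not with library totals.

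**Figure D4:**
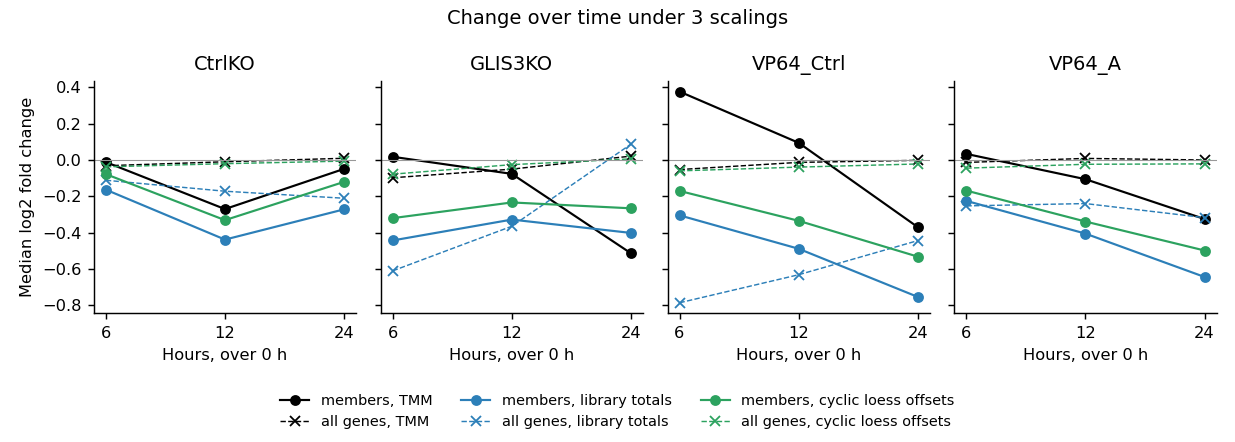
Median log2 fold change over 0 h (y axis) at 6, 12 and 24 h (x axis, equally spaced) in the 4 populations under 3 scalings, for the 82 ribosomal protein genes (circles, solid) and all tested genes (crosses, dashed). Members at 24 h lie below all genes under each scaling in the 4 populations, and at 6 h in VP64_Ctrl they lie above under TMM and library totals and below under abundance offsets.

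How members varied among themselves was measured as the log2 share of a member in the summed counts of all 82, which removes what they share in a library. The SD of this value over 48 libraries had a median of 0.17 over the members and was under 0.3 for 73 of them. The 5 largest were RPS27L (0.58), RPL22L1 (0.56), RPL28 (0.47), RPL39L (0.46) and RPL26L1 (0.38). Counting error alone would give 0.10, 0.16, 0.02, 0.18 and 0.15 for these 5.

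RPL28, a large-subunit protein, did not overlap in its share between the Cas9 and the dCas9–VP64 libraries. It made up 0.990% to 1.62% (median 1.29%) of the members' counts in the 24 CRISPRko libraries and 1.73% to 2.83% (median 2.34%) in the 24 CRISPRa libraries, with no overlap. Its level was 1176 to 2124 TPM and 2359 to 4042 TPM. RPS19 was the other member without overlap, at 1.15% to 1.63% and 0.796% to 1.15%, by a margin of 0.01 on the log2 scale. The share of all genes without such overlap was not worked out. The count of 2 members is therefore not read as a result about the members. RPS27L had medians of 0.117% and 0.0618% with overlapping ranges. The CRISPRko and CRISPRa libraries differ in the Cas9 or dCas9–VP64 construct and in the derived line that carries it, which cannot be told apart, and no test was made.

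**Figure D5:**
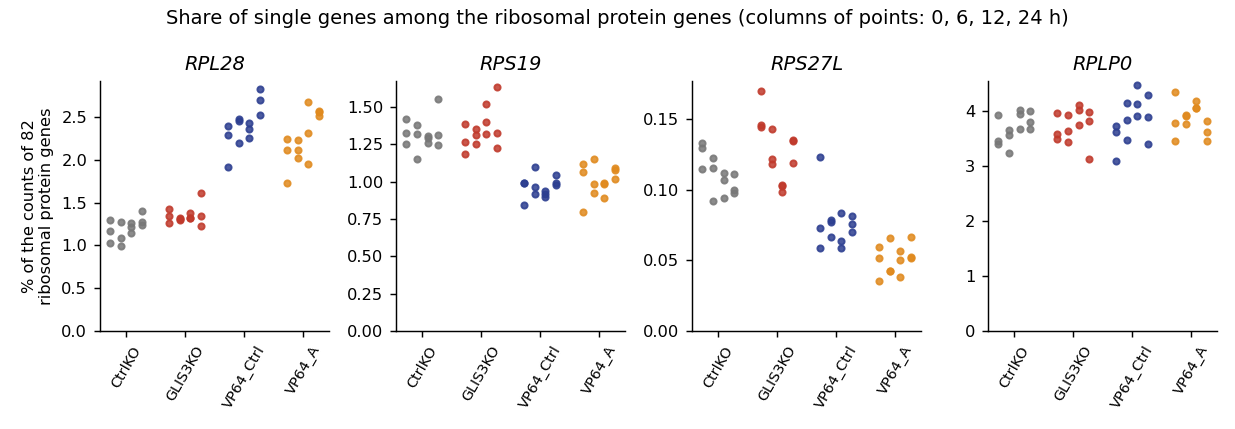
Percent of the members' summed counts (y axis) in RPL28, RPS19, RPS27L and RPLP0, with 1 point a library in 4 populations (x axis) and columns of points for 0, 6, 12 and 24 h. RPL28 lies at 0.990% to 1.62% in the CRISPRko and 1.73% to 2.83% in the CRISPRa libraries, and RPLP0 overlaps between all populations.

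Of 18 other TOP mRNAs, which encode elongation and initiation factors and their partners, 6 were higher and 0 lower in VP64_A averaged over 4 times (edgeR, median 0.25), where 9.15% of all genes were higher and 9.23% lower. EEF1G, a subunit of the elongation factor complex, gave 0.47 ± 0.14 (adjusted p = 0.0138, edgeR), EEF2, the translocase, 0.36 ± 0.12 (0.0319), PABPC1, the poly(A)-binding protein, 0.35 ± 0.08 (0.00214) and EIF4B 0.44 ± 0.10 (0.00151). NAP1L1, a histone chaperone, was another of the 6. In GLIS3KO averaged over 4 times 0 of 18 passed (edgeR, median 0.03), where 1.98% of all genes were higher and 1.09% lower. With time EEF2 rose in VP64_Ctrl at 6 h (0.97 ± 0.24, adjusted p = 0.00318) and 12 h (1.05 ± 0.24, adjusted p = 0.00143, edgeR), where 16.2% and 15.3% of all genes rose. EIF3F fell in GLIS3KO at 12 h and at 24 h (-1.03 ± 0.20, adjusted p = 0.000308, edgeR), where 13% and 6.78% of all genes fell.

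Of the 12 regulators of this class, EIF4EBP1, the mTOR-controlled inhibitor of cap-dependent initiation, was called in both averaged comparisons in opposite directions. It had a lowest, median and highest value of 29.6, 39.6 and 47.6 CPM in VP64_Ctrl and 52.5, 65.0 and 81.6 CPM in VP64_A, without overlap (0.79 ± 0.07, adjusted p = 6.33e-10, edgeR). In the CRISPRko cells it had 28.7, 42.5 and 58.5 CPM in CtrlKO and 21.9, 31.3 and 48.5 CPM in GLIS3KO (-0.37 ± 0.09, adjusted p = 0.0132, edgeR), with overlap, a call that was lost with library totals and with limma on TPM. MYC, a transcriptional activator of ribosomal genes, rose at 6 h in CtrlKO (1.38 ± 0.18, adjusted p = 3.32e-07), GLIS3KO (1.30 ± 0.18, 1.53e-06) and VP64_Ctrl (0.83 ± 0.20, 0.00177, edgeR), and in VP64_A it was higher than in VP64_Ctrl at 0 h (0.96 ± 0.19, 0.00086). LARP1 was called in no comparison.

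Host genes of small nucleolar RNAs have spliced RNAs that also start with a TOP tract. They were called lower in 1 to 3 of 7 cases in each comparison with 0 h and higher in none (edgeR). In these comparisons 3.73% to 13% of all genes were lower and 6.53% to 16.2% higher. The median of the host genes ran from -0.62 in VP64_Ctrl at 12 h to 0.10 in CtrlKO at 6 h, and SNHG8 and GAS5 gave most of the calls. SNHG8 fell in all 12 comparisons with 0 h, from -0.74 ± 0.28 (adjusted p = 0.0421, edgeR) in VP64_Ctrl at 6 h to -1.66 ± 0.30 (9.39e-05) in CtrlKO at 12 h. GAS5 fell in 8 of the 12, with -1.10 ± 0.16 (5.06e-06) in VP64_Ctrl at 24 h, and in none of the 3 of CtrlKO. Of 7 host genes tested, 0 passed in either averaged guide comparison (edgeR). Of all genes, 1.98% were higher and 1.09% lower in GLIS3KO, and 9.15% and 9.23% in VP64_A.

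Genes of the mitochondrial ribosome, which is built from a separate set of proteins, lay near 0 in both averaged guide comparisons. Of 76 tested, 2 were higher and 1 lower in VP64_A averaged over 4 times (edgeR, median 0.01), where 9.15% of all genes were higher and 9.23% lower, and 0 were higher and 1 lower in GLIS3KO (median -0.04), where 1.98% and 1.09% were. The difference from the cytosolic members was not tested. With time, the largest count of falls was 24 in GLIS3KO at 6 h (median -0.44), where 10.8% of all genes fell and the median of the 82 cytosolic members was 0.02. The 3 highest shares of counts in the 72 genes of this kind with a mean of at least 10 CPM were in libraries that stood apart (GLIS3KO 0 h and 24 h replicate 3 and VP64_Ctrl 0 h replicate 3, from 0.390% to 0.497%), and their part in these counts was not tested.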

How the data were processed

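Poly(A) RNA-seq of 48 fibroblast libraries was analysed from a gene table of estimated counts and a matching TPM table deposited by the authors, who trimmed reads with Trim Galore, removed ribosomal RNA reads with SortMeRNA, aligned to GRCh38 with STAR and quantified with Salmon. Of the estimated counts 6.38% were not whole, and all were rounded. TPM, the unit of the second table that the authors deposited, corrects for transcript length and was used for levels between genes and for alternatives. The versions were not given in the sources used here.

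Library totals ran from 2321990 to 10661004, and their size limits the precision of low members such as the paralogs. Counts were tested with edgeR 4.0.16 (R 4.3.3; quasi-likelihood test, TMM scaling, filterByExpr with a minimum count of 10 and total of 15) in 1 model of 8 conditions for each experiment, over 10962 genes in the CRISPRko and 10980 in the CRISPRa cells. P-values were adjusted over all tested genes by Benjamini-Hochberg, with a threshold of 0.05. All 82 members passed the filter in both. Alternatives used DESeq2 1.42.0, limma 3.58.1 on log2(TPM + 1) or log2(TPM + 0.1), other scalings, and subsets of libraries. Shares of all genes called are those of the edgeR fit with TMM scaling, and none are given for the alternatives. CPM of single libraries are TMM-normalised unless library total is stated, and the member shares use library totals. The test functions were checked on simulated counts.

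No 2 replicates were identical among 48 pairs. Start windows came from RefSeq (GRCh38.p14) with 250 bases before and 50 from the start. Protein sequences were not analysed here.

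The members and lists were chosen with earlier results of these data known. Named genes were the stalk proteins and RPSA; paralog pairs; RPS19, RPS6, RPL5, RPL11 and RPS27A; the 5 highest and 5 lowest by mean TPM; up to 3 called members with the lowest adjusted p in each direction of a contrast; the 5 with the largest SD of share among members; and up to 2 by interaction. RPS26, RPL28 at its start site and the values of single TOP, regulator and host genes were chosen after their values were seen. Some genes that meet this rule are not reported here, though they stay in the counts of members. GNB2L1 is the table's symbol for RACK1, and SNHG29 had no row.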

Additional observations from a re-analysis of the deposited data

How the results depend on the processing

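The knockout contrast is GLIS3KO over CtrlKO and the activation contrast VP64_A over VP64_Ctrl. Shares of all genes called are given above for the edgeR fit with TMM scaling only. The counts below show how calls moved with the setting and are not set against all genes. In the activation contrast averaged over times, the median of the members stayed above 0, though with abundance-dependent offsets it was 0.16 in place of 0.32, and the count of members called within 1.5 times of 38 under each alternative other than leaving out single libraries. The other counts moved with the setting, and where no alternative is described as removing libraries or genes the cause was not tested. With DESeq2, the members called, all lower, were 23 in GLIS3KO 24 h over 0 h, 2 in VP64_A 12 h over 0 h, 10 in VP64_A 24 h over 0 h and 6 in VP64_Ctrl 24 h over 0 h. Higher calls came to 13 in the activation contrast at 0 h, 1 in the activation contrast at 24 h, 2 in VP64_Ctrl 12 h over 0 h and 10 in VP64_Ctrl 6 h over 0 h. With abundance-dependent offsets (cyclic loess), the members called, all lower, were 15 in CtrlKO 12 h over 0 h, 12 in GLIS3KO 12 h over 0 h, 19 in GLIS3KO 6 h over 0 h, 37 in VP64_A 12 h over 0 h, 54 in VP64_A 24 h over 0 h, 6 in VP64_A 6 h over 0 h, 36 in VP64_Ctrl 12 h over 0 h, 57 in VP64_Ctrl 24 h over 0 h and 18 in VP64_Ctrl 6 h over 0 h. Called higher were 1 in the activation contrast at 12 h, 1 in the activation contrast at 24 h and 4 in the activation contrast at 6 h. Member medians moved to -0.057 in the knockout contrast at 24 h, -0.32 in GLIS3KO 6 h over 0 h, 0.16 in the activation contrast at 0 h, 0.14 in the activation contrast at 24 h, -0.33 in VP64_Ctrl 12 h over 0 h and -0.17 in VP64_Ctrl 6 h over 0 h. With library totals only, the members called, all lower, were 25 in CtrlKO 12 h over 0 h, 1 in CtrlKO 24 h over 0 h, 22 in GLIS3KO 12 h over 0 h, 29 in GLIS3KO 24 h over 0 h, 50 in GLIS3KO 6 h over 0 h, 35 in VP64_A 12 h over 0 h, 63 in VP64_A 24 h over 0 h, 5 in VP64_A 6 h over 0 h, 60 in VP64_Ctrl 12 h over 0 h, 78 in VP64_Ctrl 24 h over 0 h and 30 in VP64_Ctrl 6 h over 0 h. Those called higher were 1 in the activation contrast at 24 h and 2 in the activation contrast at 6 h. The median of the members moved to -0.018 in the knockout contrast at 24 h, -0.18 in the knockout contrast at 6 h, -0.44 in GLIS3KO 6 h over 0 h, 0.16 in the activation contrast at 0 h, -0.41 in VP64_A 12 h over 0 h, -0.64 in VP64_A 24 h over 0 h, -0.49 in VP64_Ctrl 12 h over 0 h, -0.75 in VP64_Ctrl 24 h over 0 h and -0.30 in VP64_Ctrl 6 h over 0 h. With limma on log2(TPM + 0.1), the members called, all lower, were 18 in CtrlKO 12 h over 0 h, 4 in CtrlKO 24 h over 0 h, 24 in GLIS3KO 12 h over 0 h, 28 in GLIS3KO 24 h over 0 h, 40 in GLIS3KO 6 h over 0 h, 32 in VP64_A 12 h over 0 h, 54 in VP64_A 24 h over 0 h, 12 in VP64_A 6 h over 0 h, 55 in VP64_Ctrl 12 h over 0 h, 70 in VP64_Ctrl 24 h over 0 h and 39 in VP64_Ctrl 6 h over 0 h. Higher calls came to 2 in the activation contrast at 12 h, 2 in the activation contrast at 24 h and 7 in the activation contrast at 6 h. Member medians moved to -0.058 in the knockout contrast at 24 h, -0.35 in GLIS3KO 6 h over 0 h, 0.16 in the activation contrast at 0 h, -0.41 in VP64_Ctrl 12 h over 0 h and -0.30 in VP64_Ctrl 6 h over 0 h. With limma on log2(TPM + 1), the members called, all lower, were 18 in CtrlKO 12 h over 0 h, 1 in CtrlKO 24 h over 0 h, 24 in GLIS3KO 12 h over 0 h, 27 in GLIS3KO 24 h over 0 h, 42 in GLIS3KO 6 h over 0 h, 30 in VP64_A 12 h over 0 h, 56 in VP64_A 24 h over 0 h, 10 in VP64_A 6 h over 0 h, 57 in VP64_Ctrl 12 h over 0 h, 71 in VP64_Ctrl 24 h over 0 h and 38 in VP64_Ctrl 6 h over 0 h. Called higher were 2 in the activation contrast at 12 h, 2 in the activation contrast at 24 h and 6 in the activation contrast at 6 h. Calls in both directions, or none, came to 7 in the activation contrast at 0 h. The median of the members moved to -0.057 in the knockout contrast at 24 h, -0.35 in GLIS3KO 6 h over 0 h, 0.16 in the activation contrast at 0 h, -0.41 in VP64_Ctrl 12 h over 0 h and -0.30 in VP64_Ctrl 6 h over 0 h. Without the filter on low counts, the members called, all lower, were 5 in CtrlKO 12 h over 0 h, 1 in the knockout contrast averaged over times, 1 in GLIS3KO 6 h over 0 h, 3 in VP64_A 12 h over 0 h, 10 in VP64_A 24 h over 0 h and 9 in VP64_Ctrl 24 h over 0 h. The interaction called 1 member in the knockout cells. Those called higher were 1 in the knockout contrast at 12 h, 12 in the activation contrast at 0 h and 7 in the activation contrast at 24 h. Calls in both directions, or none, came to 2 in the knockout contrast at 6 h. With a fit of only the libraries compared, the members called, all lower, were 22 in CtrlKO 12 h over 0 h, 1 in the knockout contrast at 6 h, 1 in GLIS3KO 24 h over 0 h, 1 in GLIS3KO 6 h over 0 h, 31 in VP64_A 24 h over 0 h and 1 in VP64_Ctrl 24 h over 0 h. Higher calls came to 41 in the activation contrast at 24 h, 1 in VP64_A 6 h over 0 h and 1 in VP64_Ctrl 6 h over 0 h. Calls in both directions, or none, came to 0 in the activation contrast at 0 h and 0 in VP64_A 12 h over 0 h. Without the 4 libraries that stood apart, the members called, all lower, were 4 in CtrlKO 12 h over 0 h, 1 in the knockout contrast averaged over times, 8 in GLIS3KO 12 h over 0 h, 49 in GLIS3KO 24 h over 0 h, 1 in GLIS3KO 6 h over 0 h, 3 in VP64_A 12 h over 0 h, 16 in VP64_A 24 h over 0 h and 40 in VP64_Ctrl 24 h over 0 h. Called higher were 2 in the activation contrast at 24 h. Calls in both directions, or none, came to 0 in the activation contrast at 0 h and 0 in VP64_Ctrl 6 h over 0 h. Member medians moved to -0.20 in VP64_Ctrl 12 h over 0 h. Leaving out 1 library at a time gave counts of 0 to 1 in CtrlKO 12 h over 0 h, 0 to 1 in the knockout contrast averaged over times, 0 to 3 in GLIS3KO 12 h over 0 h, 1 to 45 in GLIS3KO 24 h over 0 h, 0 to 17 in the activation contrast at 0 h, 21 to 48 in the activation contrast averaged over times, 0 to 4 in VP64_A 12 h over 0 h, 1 to 11 in VP64_A 24 h over 0 h, 0 to 3 in VP64_A 6 h over 0 h, 0 to 1 in VP64_Ctrl 12 h over 0 h, 0 to 40 in VP64_Ctrl 24 h over 0 h and 0 to 15 in VP64_Ctrl 6 h over 0 h. The median of the members then ran from -0.20 to 0.26 in VP64_Ctrl 12 h over 0 h. RPS27 in the averaged activation contrast took the other sign (0.01 as reported) with DESeq2 size factors (-0.000715), DESeq2 (-0.000764), library totals (-0.12), abundance-dependent offsets (-0.095), limma on TPM (-0.057 with either pseudocount), without the 4 libraries (-0.066) and in the range of -0.11 to 0.074 when 1 library was left out. RPS2 in VP64_Ctrl at 6 h turned to -0.11 with library totals, and to -0.13 with limma at either pseudocount. Replicate numbers are shared between conditions, and the labels do not say whether same-numbered libraries share a culture or day. Same-numbered libraries deviated together with a correlation over 0.1 in 2 of 12 pairs in each experiment. Between conditions, the mean correlation was 0.0049 with the same number and -0.0023 with another number in the CRISPRko cells. In the CRISPRa cells it was 0.0153 and -0.0076. These values cannot settle whether same-numbered libraries share a culture. A replicate block took the members that fell in GLIS3KO 24 h over 0 h from 10 to 4, and the 38 of the averaged activation contrast to 36. Libraries correlated best with their own number in 10 of 24 and 13 of 24 cases. The ratio of shares of counts moved by less than 1 SD on the TPM scale and when any library was left out. A share without mitochondrially encoded genes was not run, because the table holds 0 genes with symbols starting MT-. A mean CPM of at least 1 gave the same 82 members and one of at least 100 gave 77. Abundance-dependent offsets and the removal of 4 libraries were chosen after seeing the data. Where an arm was left with 2 libraries, the spread came from the fit over all conditions. Depth limits the paralogs most, as their counts are lowest.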
